A study of Arabidopsis thaliana with 12 samples.

Results

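Enzymes that break down or inactivate jasmonate hormones were followed in Arabidopsis thaliana seedlings infiltrated with valinomycin, with Pseudomonas syringae pv. tomato DC3000, a bacterium that infects leaves (DC3000 for short), or with both. The 10 genes were taken as named enzymes of this pathway, with earlier results of these data known: CYP94B1, CYP94B3, CYP94C1, ST2A, JOX1, JOX2, JOX3, JOX4, IAR3 and ILL6. Of these, 9 have a row among the 20233 genes of the normalized table, and the expression of JOX1 (AT3G11180) was not analysed here. The table states no unit; its values have the form of FPKM, sequenced fragments scaled by transcript length and library size, and are called that here. All 9 genes averaged 1 FPKM or more across the 12 libraries and were tested, but 4 of them, CYP94B3, CYP94C1, JOX4 and ST2A, averaged under 1 FPKM in mock and passed through the treated groups.

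The 12 libraries form 4 groups of 3. Seedlings 2 to 3 weeks old were mock-treated or were infiltrated under vacuum with 10 µM valinomycin, with DC3000, or with 10 µM valinomycin together with DC3000, and RNA was taken 6 h later. Valinomycin is a bacterial antibiotic that carries potassium ions across membranes. The labels give leaf as the tissue and do not give the plants' genotype or accession, the bacterial dose, what the mock treatment held, or whether libraries came from separate plants, so a p-value reflects the spread among libraries and no more. Values are means ± SD over 3 libraries unless said otherwise.

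Jasmonic acid becomes the active hormone when it is joined to isoleucine, and the conjugate binds the receptor COI1 together with JAZ repressor proteins. DC3000 is known for making coronatine, a toxin that mimics this conjugate. Plants remove the hormone along parallel routes: CYP94 cytochromes P450 oxidise the conjugate, the amidohydrolases IAR3 and ILL6 split off its amino acid, JOX dioxygenases hydroxylate free jasmonic acid, and the sulfotransferase ST2A adds sulfate to the hydroxylated acid. Many of these genes are known to be induced by the hormone that their products remove.

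Upstream DNA is shown for the genes whose windows hold a searched motif and whose expression is described below, since the 9 genes moved together between groups. The motifs were CACGTG (the G-box), CACATG or its reverse complement CATGTG (a G-box variant), and TTGAC or its reverse complement GTCAA (the core of the W-box, known as the binding site of WRKY factors). G-box motifs are known as binding sites of MYC factors. In the window from 250 bases before to 50 bases after the annotated gene start, read on both strands in RefSeq's TAIR10.1, the G-box was found in 1 of the 10 genes, JOX1, against 7.7% of the 27443 windows of nuclear protein-coding genes. The variant was found in 2 of 10, CYP94C1 and JOX2, against 12.9%, and the W-box core in 3 of 10, CYP94B1, CYP94C1 and JOX4, against 50.5%. No motif overlapped another in these windows. The 250 bases before the gene start follow, 5′ to 3′ on the gene's strand, with any searched motif in capitals. They lie at chr2:11809029-11809278 (plus strand), chr5:1671820-1672069 (plus strand), chr5:25410726-25410975 (minus strand) and chr2:16014992-16015241 (minus strand) in the order printed.
CYP94C1: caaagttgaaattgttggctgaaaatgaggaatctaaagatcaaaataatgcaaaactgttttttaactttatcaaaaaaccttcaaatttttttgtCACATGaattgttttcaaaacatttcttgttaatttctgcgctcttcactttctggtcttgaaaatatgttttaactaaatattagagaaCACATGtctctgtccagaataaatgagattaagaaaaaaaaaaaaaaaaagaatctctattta
JOX2: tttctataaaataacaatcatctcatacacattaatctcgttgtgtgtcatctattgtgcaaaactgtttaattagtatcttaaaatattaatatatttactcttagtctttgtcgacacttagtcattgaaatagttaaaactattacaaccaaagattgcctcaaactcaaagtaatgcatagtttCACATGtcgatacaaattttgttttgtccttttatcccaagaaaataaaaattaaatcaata
CYP94B1: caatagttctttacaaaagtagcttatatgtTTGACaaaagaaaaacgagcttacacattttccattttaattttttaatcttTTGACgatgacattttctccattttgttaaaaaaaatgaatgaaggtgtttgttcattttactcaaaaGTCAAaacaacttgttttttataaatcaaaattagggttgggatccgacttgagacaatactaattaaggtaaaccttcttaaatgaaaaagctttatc
JOX4: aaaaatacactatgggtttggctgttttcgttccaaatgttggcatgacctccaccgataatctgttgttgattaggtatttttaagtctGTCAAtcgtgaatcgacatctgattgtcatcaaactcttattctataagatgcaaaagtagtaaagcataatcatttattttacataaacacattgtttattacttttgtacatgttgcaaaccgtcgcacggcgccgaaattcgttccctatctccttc
CYP94C1 holds CACATG at 153 and 63 bases before its start and JOX2 at 62 bases. CYP94B1 holds W-box cores at 219, 167 and 99 bases before its start and JOX4 holds 1 at 160 bases. The W-box core of CYP94C1 lies after the gene start and is not in the printed stretch. These are matches of letters only, and no binding was measured.

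CYP94B3, CYP94B1 and CYP94C1 oxidise the isoleucine conjugate. CYP94B3 (AT3G48520; chromosome 3, 17974853 to 17976774, minus strand) and CYP94B1 (AT5G63450; chromosome 5, 25408821 to 25410725, minus strand) are hydroxylases of the conjugate, and CYP94C1 (AT2G27690; chromosome 2, 11809279 to 11811280, plus strand) is known to carry the oxidation on to a carboxylic acid. CYP94B3 stood at 0.392, 0.745 and 0.673 FPKM in the 3 mock libraries and 9.54, 7.87 and 3.97 with valinomycin. With DC3000 the CYP94B3 values were 131, 115 and 111 FPKM, and with both treatments they were 141, 164 and 123. The mock, valinomycin and DC3000 libraries did not overlap for this gene, while those of DC3000 and both treatments did. CYP94B1, whose transcript is 78.4% identical to that of CYP94B3 over 73.0% of its length, stood at 1.15, 0.739 and 1.44 FPKM in mock and 3.29, 1.57 and 2.99 with valinomycin. DC3000 brought CYP94B1 to 58.5, 66.3 and 35.8 FPKM and both treatments to 56.7, 53.0 and 51.2. The lowest valinomycin library lay just above the highest mock library, and the DC3000 libraries lay more than 10 times higher than any valinomycin library. CYP94C1 stood at 0.318, 0.219 and 0.719 FPKM in mock, 10.7, 4.38 and 2.83 with valinomycin and 19.5, 23.6 and 13.9 with DC3000. With both treatments it reached 33.8, 31.4 and 33.8 FPKM, above every DC3000 library.

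IAR3 (AT1G51760; chromosome 1, 19199351 to 19201707, plus strand) and ILL6 (AT1G44350; chromosome 1, 16834210 to 16838562, minus strand) encode amidohydrolases, which release the acid from its amino acid conjugate; IAR3 is also known for acting on an auxin conjugate. IAR3 was the most abundant of the 9 transcripts in mock, at 7.47, 7.65 and 6.60 FPKM, and valinomycin libraries held 46.6, 32.1 and 17.5. Under DC3000 it stood at 288, 281 and 137 FPKM and under both treatments at 297, 352 and 269. The third DC3000 library was far below the other 2, but every DC3000 library lay above every valinomycin library. ILL6 stood at 3.22, 3.72 and 2.24 FPKM in mock, 19.1, 13.6 and 8.62 with valinomycin, 49.4, 52.5 and 36.0 under DC3000 and 54.7, 54.6 and 52.2 under both treatments. Its groups were ordered in the same way, over a narrower span.

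JOX2 (AT5G05600; chromosome 5, 1672070 to 1674770, plus strand), JOX3 (AT3G55970; chromosome 3, 20766735 to 20769410, minus strand) and JOX4 (AT2G38240; chromosome 2, 16012535 to 16014991, minus strand) encode dioxygenases that hydroxylate free jasmonic acid before it can be conjugated. JOX2 stood at 1.85, 1.95 and 2.2 FPKM in mock, 52.5, 35.2 and 21.5 with valinomycin, 250.2, 258 and 198 under DC3000 and 264, 290.0 and 227 under the double treatment. For JOX3 the mock libraries held 3.45, 2.04 and 1.62 FPKM, those with valinomycin 15.2, 10.7 and 6.77, those with DC3000 235, 239 and 206 and those with both 314, 317 and 258. For JOX4 they held 0.468, 0.948 and 1.01 FPKM in mock, 43.7, 30.2 and 13.6 with valinomycin, 268, 233 and 217 under DC3000 and 322, 347 and 286 under the double treatment. The JOX genes thus reached similar levels with DC3000, between 198 and 268 FPKM in every library, while with valinomycin JOX3 lay below JOX2 and JOX4 in each library.

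ST2A (AT5G07010; chromosome 5, 2174668 to 2176446, minus strand), the sulfotransferase, stood at 0.725, 1.43 and 0.627 FPKM in mock and 17.5, 24.2 and 13.1 with valinomycin. DC3000 libraries held 198, 209 and 154 FPKM of ST2A and those with both treatments 238, 226 and 188. Mock, valinomycin and DC3000 libraries did not overlap, and 2 of the 3 libraries with both treatments lay above the highest DC3000 library.

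**Figure D1:**
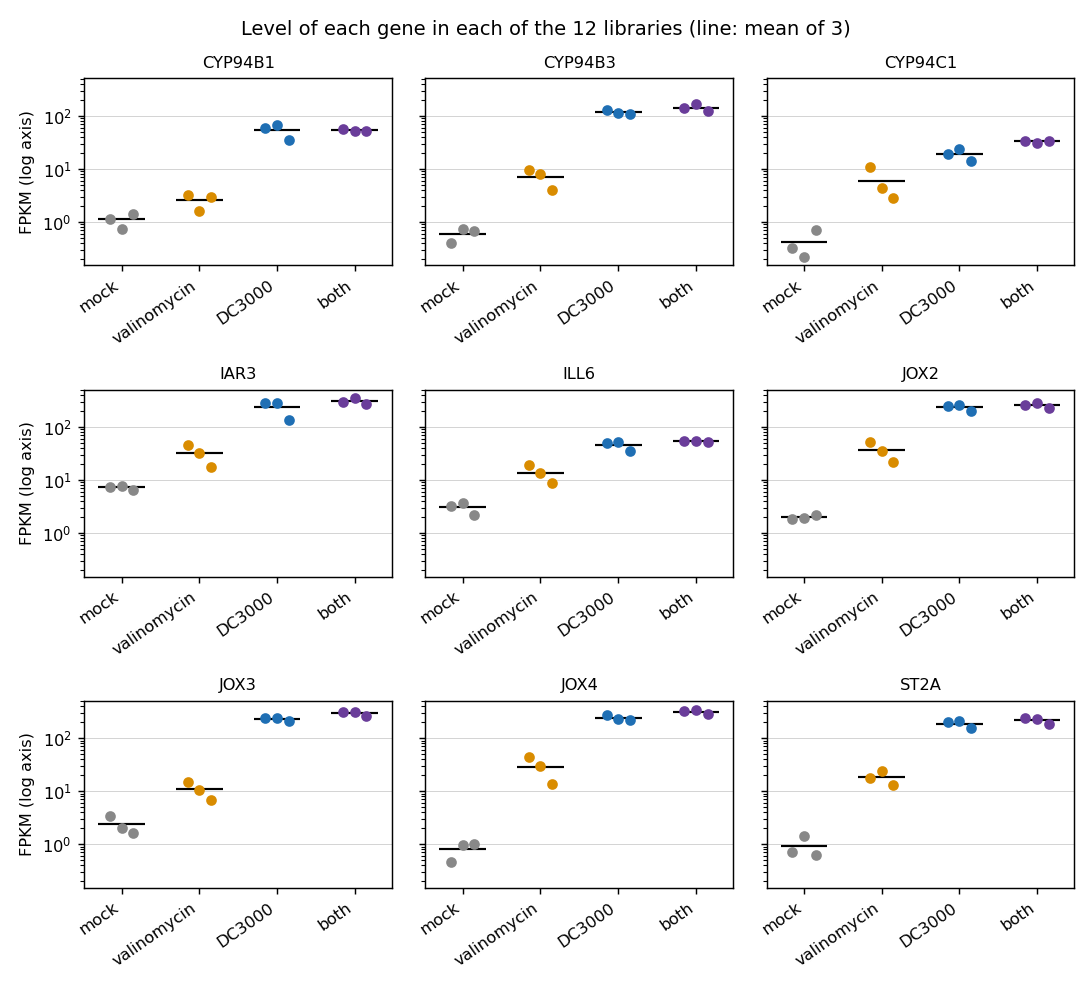
FPKM of the 9 genes on a log axis, 1 panel a gene, with 1 point a library and a line at the mean of 3, for mock, valinomycin, DC3000 and both treatments. In each panel every DC3000 library lies above every valinomycin library, and the 2 groups given DC3000 overlap in 6 panels but not in those of CYP94C1, JOX3 and JOX4.

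Across the 9 genes, the order of levels differed between groups. In mock IAR3 led at 7.24 ± 0.559 FPKM and CYP94C1 was lowest at 0.418 ± 0.265. With DC3000 the first 4 were JOX4 at 239 ± 26.4, IAR3 at 236 ± 85, JOX2 at 235 ± 32.6 and JOX3 at 227 ± 17.8 FPKM, and each overlapped its neighbour. ST2A at 187 ± 29.1 FPKM lay next, and CYP94B3 at 119 ± 11 stood apart from both of its neighbours, as it did with both treatments. The mean of JOX4 exceeded that of 3.9% of the 18048 tested genes in mock and of 97.8% with DC3000. CYP94C1 went from above 1.3% of tested genes in mock to above 73.2% with DC3000 and 83.1% with both.

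In the treated groups most of the 9 genes had the same lowest library. The valinomycin library of replicate 3 was the lowest of its group for 8 of the 9 genes, and their summed level was 218, 160 and 90.8 FPKM in valinomycin replicates 1, 2 and 3. DC3000 replicate 3 was the lowest of its group for 9 of 9, with sums of 1499, 1478 and 1109 FPKM. In that library organelle and ribosomal RNA genes made up 62.3% of the values, the highest share of the 12 libraries, whose lowest was 46.8%; its part in these sums was not tested. Replicate 3 with both treatments was the lowest for 8 of 9, at sums of 1721, 1835 and 1489 FPKM. Over the 12 libraries, Pearson's r of log2(FPKM + 1) between pairs of the 9 genes ran from 0.92 to 1.00 in 36 pairs, as a description only, since the points share the same libraries and the 4 groups lie far apart. After each group's mean was removed, r ran from -0.23 to 0.98 with a median of 0.67, and 34 of 36 pairs were positive. CYP94B1 followed the others least, with r of -0.23 to ST2A, -0.04 to CYP94B3 and 0.04 to JOX4. In mock no library was the lowest for most genes: replicates 1, 2 and 3 were lowest for 3, 2 and 4 of the 9.

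Library totals ran from 1057472 to 1350272 FPKM. Markers of leaf mesophyll were high in every library, with a sum of 6 genes from 32839.9 to 35147 FPKM in mock, 18293 to 20881 with valinomycin, 17717 to 20474 under DC3000 and 12478 to 14218 under both; all 6 fell against mock in each treated group. In bulk tissue fewer cells of a type and less RNA per cell cannot be told apart. Of 5 root markers only PYK10 has a row here, at 129 to 199 FPKM in mock and at most 312 in any library. The 4 meristem and epidermis markers summed to 179.6 to 294 FPKM in mock, 114 to 149 with valinomycin, 85.0 to 121 under DC3000 and 53.1 to 66.5 under both treatments. Most of each sum was PDF1, with means of 210, 97.9, 83.4 and 39.9 FPKM in that order. Against mock 1, 2 and 2 of the 4 were called lower, beside 13.8%, 17.2% and 23.1% of all tested genes. STM was called higher with DC3000. The part of these marker differences in the results was not tested. The 7 phloem and xylem markers summed to 119.7 to 144 FPKM in mock and 92.4 to 108 under both treatments, and the 5 guard cell markers to 19.8 to 36.3 over all libraries. All 11 circadian clock genes of a list chosen for this comparison changed against mock in each treated group, 7 higher and 4 lower. The morning clock gene LHY held 303, 291 and 206 FPKM in mock and at no more than 17.3 in any treated library. The clock difference goes with every comparison against mock and also enters the interaction given below, which includes the mock libraries. Clock genes also differed between treated groups. In DC3000 against valinomycin 6 of the 11 were called lower, beside 17.9% of all tested genes. In both treatments against DC3000 3 were called higher, and against valinomycin 2 lower, beside 14.1% and 10.4%. In the interaction all 11 clock genes were called, 4 higher and 7 lower, beside 5.25% and 19.4% of all tested genes. The part of the clock difference in the results was not tested.

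The first comparison sets valinomycin against mock, without bacteria. All 9 jasmonate-inactivating genes rose, by 0.76 to 3.93 on the log2(FPKM + 1) scale, a scale on which low genes appear to change less than they do. Over all tested genes 38.5% were called higher and 13.8% lower (limma, adjusted p under 0.05), so a rise by itself was common. JOX4, JOX2 and ST2A rose by 3.93 ± 0.29, 3.55 ± 0.24 and 3.30 ± 0.21 (change ± standard error, as below; limma adjusted p = 1.21e-07, 4.27e-08 and 3.22e-08). For these genes 99.3%, 99.0% and 98.6% of tested genes had a lower change. JOX4, ST2A, CYP94B3 and CYP94C1 averaged under 1 FPKM in mock and passed the filter through the treated groups. Their tests and ranks against mock are therefore not independent of that filter. CYP94B3 rose by 2.28 ± 0.23 and CYP94C1 by 2.15 ± 0.31 (limma adjusted p = 1.85e-06 and 5.92e-05). IAR3, ILL6 and JOX3 rose by 1.90 ± 0.31, 1.82 ± 0.23 and 1.79 ± 0.24 (limma adjusted p = 0.000144, 1.94e-05 and 2.68e-05). The smallest rise was that of CYP94B1, 0.76 ± 0.23 (limma adjusted p = 0.0139).

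The median of the 9 was 2.15, against 0.27 over all tested genes. In every gene each valinomycin library lay above each mock library, which held for 41.5% of tested genes. The rise of CYP94B1 was not called after scaling to median-of-ratios size factors (0.55, limma adjusted p = 0.0709), without mock replicate 2 (limma adjusted p = 0.0595) or without valinomycin replicate 1 (limma adjusted p = 0.0556). That scaling moves the median of all genes from 0.27 to near 0 and the split of all calls from 6943 higher and 2493 lower to 4763 and 4934.

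DC3000 against mock asks what the bacterium did alone. All 9 genes rose, by 3.53 to 7.06, against 31.6% of tested genes called higher and 17.2% lower. JOX4 rose by 7.06 ± 0.29 (limma adjusted p = 2.3e-10), the second largest change of the 18048 tested genes, and ST2A by 6.62 ± 0.21 (limma adjusted p = 2.46e-11), the 8th largest. JOX2, CYP94B3 and JOX3 ranked 13, 16 and 19 from the top with changes of 6.29 ± 0.24, 6.23 ± 0.23 and 6.11 ± 0.24 (limma adjusted p = 9.81e-11, 6.71e-11 and 1.39e-10). Some jasmonate genes outside the 9 also ranked near the top. The synthesis genes AOC2, AOC1 and LOX2 ranked 1, 7 and 15 and the repressor gene JAZ10 ranked 10, while LOX6 and MYC4 ranked 4513 and 15501. IAR3 rose by 4.77 ± 0.31 and CYP94B1 by 4.66 ± 0.23 (limma adjusted p = 1.74e-08 and 1.51e-09). CYP94C1 and ILL6, with 3.80 ± 0.31 and 3.53 ± 0.23, rose least (limma adjusted p = 2e-07 and 2.16e-08). As ratios of group means, the rise was 295-fold in JOX4, 202-fold in ST2A and 32.5-fold in IAR3. The JOX4 and ST2A ratios rest on mock means under 1 FPKM, where the counting error is unknown. Both genes passed the filter through the treated groups. In each of the 9 genes every DC3000 library lay above every mock library, as in 36.1% of tested genes. The median of the 9 was 6.11, against 0.18 over all tested genes. Median-of-ratios scaling turned the split of all calls from 5707 higher and 3096 lower into 4580 and 5046, with all 9 genes still called higher.

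Both treatments against mock gave rises of 3.77 to 7.47 in all 9 genes, with 37.2% of tested genes called higher and 23.1% lower. JOX4 had the largest change of all tested genes, 7.47 ± 0.29 (limma adjusted p = 1.36e-10), and ST2A the third largest, 6.84 ± 0.21 (limma adjusted p = 2.03e-11). JOX3, CYP94B3 and JOX2 ranked 10, 11 and 14 with 6.49, 6.48 and 6.44. The median was 6.44, against 0.17 over all tested genes; median-of-ratios scaling moved the split of all calls from 6711 higher and 4173 lower to 5823 and 5898. Every library with both treatments lay above every mock library in the 9 genes, as in 40.7% of tested genes. These comparisons share the mock libraries, in which CYP94B3, CYP94C1, JOX4 and ST2A averaged under 1 FPKM.

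**Figure D2:**
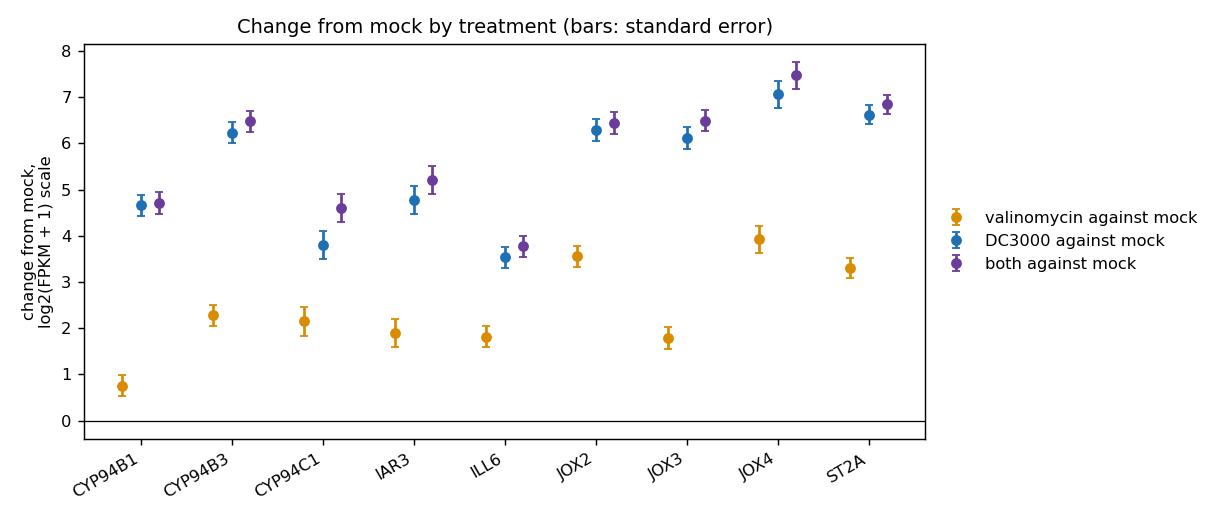
Change from mock on the log2(FPKM + 1) scale with its standard error for each of the 9 genes, in valinomycin, DC3000 and both treatments. Valinomycin changes run from 0.76 in CYP94B1 to 3.93 in JOX4, and the changes with DC3000 and with both treatments lie between 3.53 and 7.47.

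DC3000 against valinomycin compares the single treatments with each other. All 9 genes were higher with DC3000, by 1.65 in CYP94C1 to 4.32 in JOX3, whereas 8.18% of tested genes were called higher and 17.9% lower. The difference was 4.32 ± 0.24 in JOX3, 3.95 ± 0.23 in CYP94B3 and 3.90 ± 0.23 in CYP94B1 (limma adjusted p = 3.23e-08, 4.22e-08 and 4.79e-08). It was 1.72 ± 0.23 in ILL6 and 1.65 ± 0.31 in CYP94C1 (limma adjusted p = 6.06e-05 and 0.000993). The valinomycin mean amounted to 4.80% of the DC3000 mean for JOX3, 4.89% for CYP94B1 and 5.99% for CYP94B3. It amounted to 15.5% for JOX2, 29.9% for ILL6 and 31.5% for CYP94C1. Both treatments against valinomycin alone, which asks what the bacterium added, gave rises of 1.96 in ILL6 to 4.70 in JOX3 in all 9 genes, with 4.72% of tested genes called higher and 10.4% lower. JOX3 had the third largest rise of all tested genes there and CYP94B3 the 6th, 4.70 ± 0.24 and 4.20 ± 0.23 (limma adjusted p = 2.58e-08 and 3.81e-08). Median-of-ratios scaling moved the split of all calls from 1477 higher and 3234 lower to 2730 and 3265 in the first of these comparisons and from 851 and 1869 to 1723 and 1700 in the second, with all 9 genes still higher in both. In all 9 genes every library given DC3000 lay above every library of valinomycin alone in both comparisons. That order, with every library higher, held for 13.8% and 12.3% of tested genes, and every library was lower in 26.8% and 24.7%. Scaling to the nuclear total gave 2360 higher and 3170 lower in the first and 1782 and 1259 in the second. The count of all genes called in the second ranged from 1596 without replicate 1 of both treatments to 3164 without mock replicate 3, and was also more than 1.5 times lower without valinomycin replicate 2 or replicates 2 or 3 of both treatments (1807, 1769 and 1691).

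Both treatments against DC3000 alone asks what valinomycin changed in bacteria-treated seedlings. Of the 9 genes 0 were called by limma, while 14.1% of tested genes were called higher and 13.5% lower; 1 gene, CYP94C1, had an unadjusted p under 0.05. All 9 estimates were above 0, from 0.05 in CYP94B1 to 0.80 in CYP94C1, with a median of 0.25 against -0.06 over all tested genes. These signs lean in part on DC3000 replicate 3, the lowest of its group for all 9. Without it the estimates were -0.21 in CYP94B1 and 0.10, 0.09, 0.08 and 0.03 in IAR3, ST2A, ILL6 and JOX2. With any 1 library left out, the lowest estimates of CYP94B3, JOX3, JOX4 and CYP94C1 were 0.15, 0.31, 0.34 and 0.60. CYP94C1 went from 19.0 ± 4.88 to 33.0 ± 1.37 FPKM, a difference of 0.80 (95% interval 0.13 to 1.46, limma adjusted p = 0.0703). The 95% interval was -0.21 to 1.10 for IAR3, -0.21 to 1.03 for JOX4 and -0.13 to 0.89 for JOX3. For CYP94B3, ST2A and ILL6 it was -0.23 to 0.73, -0.23 to 0.67 and -0.26 to 0.74. JOX2 and CYP94B1, with -0.36 to 0.65 and -0.45 to 0.54, had the lowest estimates. The missed threshold does not show that levels were equal, since the intervals together span -0.45 to 1.46. In 3 genes, CYP94C1, JOX3 and JOX4, every library with both treatments lay above every DC3000 library, as in 23.8% of tested genes, and in 6 the libraries overlapped. In a model of only these 2 groups those 3 genes were called higher (limma adjusted p = 0.00876, 0.0472 and 0.0373). Over all its tested genes that model called 3010 higher and 3000 lower, against 2551 and 2436 in the main model. CYP94C1 was also called without valinomycin replicate 1 or 3 (limma adjusted p = 0.00921 and 0.0229), neither of which enters the difference itself.

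The synthesis side of the pathway gave a different count in that comparison, in which 14.1% of all tested genes were called higher and 13.5% lower. Of 14 tested synthesis genes 5 fell (AOS, AOC1, AOC2, AOC4 and LOX2), 2 rose (ACX1 and KAT2) and 7 were not called, and their median was -0.30; some of these names were chosen after their values were seen. The falls numbered 3 under nuclear total scaling and also without mock replicate 2 or 3, valinomycin replicate 2, DC3000 replicate 1 or 2, or any 1 library of both treatments; they numbered 6 without valinomycin replicate 1 or 3. AOS, which makes the first committed step, went from 692 ± 194 to 356 ± 48.6 FPKM (log2 change -0.92 ± 0.19, limma adjusted p = 0.00337). AOC2, an allene oxide cyclase gene, went from 551 ± 129 to 276 ± 22 FPKM (log2 change -0.97 ± 0.18, limma adjusted p = 0.00149). LOX2 fell by 0.66 (limma adjusted p = 0.0428), a call that was lost without any 1 of mock replicates 2 and 3, valinomycin replicate 2, DC3000 replicates 1 and 2 and the 3 libraries of both treatments (limma adjusted p from 0.0534 to 0.166). It was also lost with nuclear total scaling, in a model of only the groups compared and with a replicate block (limma adjusted p = 0.0523, 0.0593 and 0.0558). ACX1, an oxidase of peroxisomal chain shortening, went the other way, from 70.5 ± 11.6 to 205 ± 41.8 FPKM (log2 change 1.52 ± 0.30, limma adjusted p = 0.00235). Of 15 tested genes of perception and repression 3 fell (JAZ3, JAZ6 and JAZ10), 0 rose and 12 were not called, with a median of -0.36. The count of falls is near the 13.5% of all tested genes called lower. An unadjusted p under 0.05 was found for 7 of the 15. JAZ10 and JAZ3, which encode repressors of the pathway, fell by 0.90 and 0.83 on the log2 scale (limma adjusted p = 0.0267 and 0.0113). The falls of JAZ10 and JAZ3 were not called without DC3000 replicate 1 or 2 or without replicate 2 of both treatments, and that of JAZ10 not without replicate 3 of both treatments (limma adjusted p from 0.0555 to 0.114). The count of falls in the perception list was 0 without DC3000 replicate 1 or 2 or replicate 2 of both treatments, 1 without replicate 3 of both treatments, 5 without valinomycin replicate 1 or 3 and 7 without DC3000 replicate 3. It was 5 with either other scaling. The difference between the lists was not tested.

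**Figure D3:**
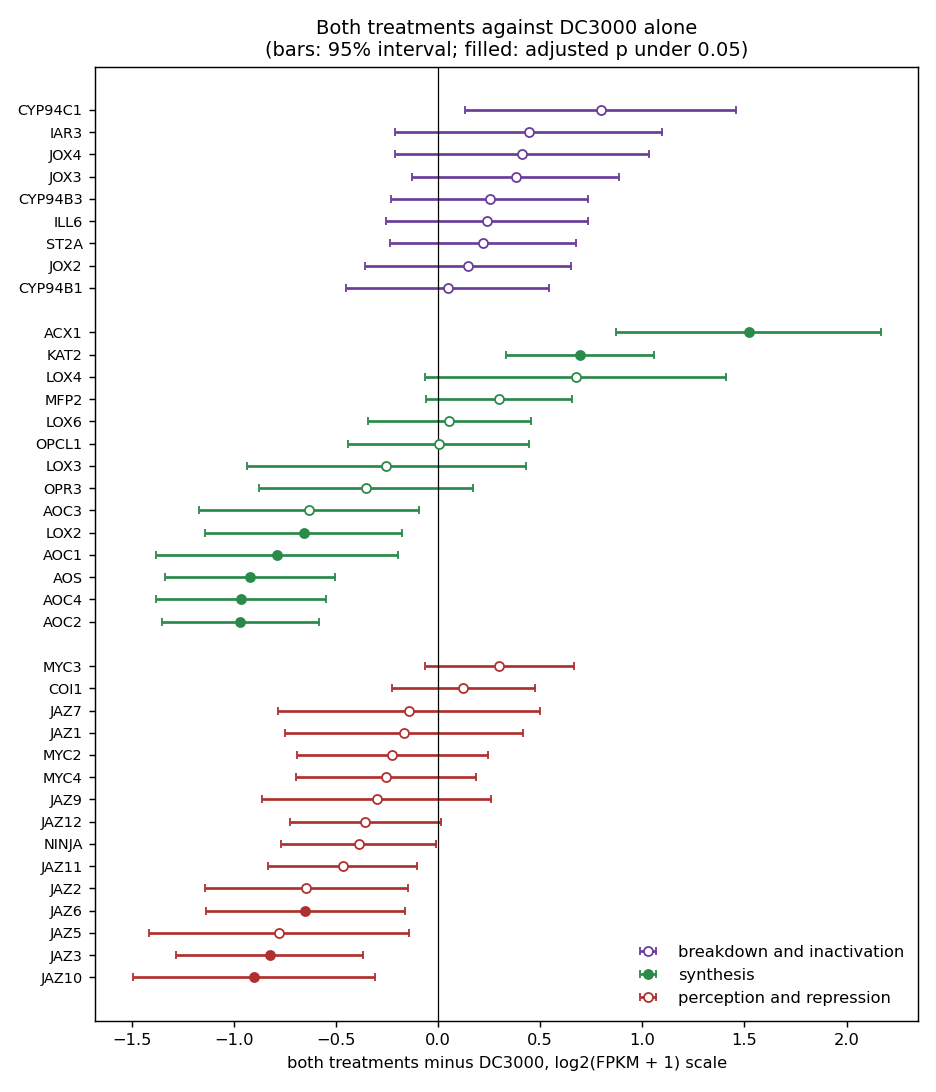
Both treatments minus DC3000 alone on the log2(FPKM + 1) scale, with 95% intervals, for the 9 inactivation genes, 14 synthesis genes and 15 genes of perception and repression; filled points had an adjusted p under 0.05. The 9 inactivation genes lie between 0.05 and 0.80 with open points, while AOS and AOC2 are filled at -0.92 and -0.97 and ACX1 at 1.52.

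The interaction asks whether the valinomycin effect differed with and without DC3000. It includes the mock libraries, so the clock difference between mock and the treated groups enters it, and its part was not tested. On the log2(FPKM + 1) scale the estimated valinomycin effect was lower with DC3000 in all 9 genes, and 8 of the 9 were called. Of all tested genes 19.4% were called lower and 5.25% higher. For most of the genes the direction depends on the scale. In FPKM the JOX4 mean went from 0.810 to 29.1 without bacteria and from 239 to 318 with them. That of JOX2 went from 2.00 to 36.4 and from 235 to 260. The step in FPKM was smaller with DC3000 in JOX2, ILL6 and CYP94B1 and larger in the other genes, and was not tested. Valinomycin raised JOX4 by 3.93 without bacteria and the estimate was 0.41 with them, a difference of -3.52 ± 0.41 (limma adjusted p = 3.93e-05). For JOX2 the difference was -3.41 ± 0.33 and for ST2A -3.08 ± 0.30 (limma adjusted p = 8.27e-06 and 8.08e-06). CYP94B3, ILL6 and JOX3 differed by -2.03 ± 0.32, -1.58 ± 0.33 and -1.41 ± 0.34 (limma adjusted p = 0.000494, 0.00367 and 0.00801). IAR3 and CYP94C1 differed by -1.46 ± 0.43 and -1.35 ± 0.44 (limma adjusted p = 0.0246 and 0.037), and CYP94B1 by -0.71 ± 0.33, which was not called (limma adjusted p = 0.128). The median of the 9 was -1.58, against -0.29 over all tested genes. Median-of-ratios scaling left 6 calls, without IAR3 and CYP94C1, and moved the split of all calls from 947 higher and 3502 lower to 2484 and 2208, while scaling to the nuclear total gave 1592 and 2849. The size of the CYP94C1 interaction ran from -2.62 with a pseudocount of 0.1 to -0.90 without valinomycin replicate 1, and its call and that of IAR3 were lost in several settings (median-of-ratios scaling, limma adjusted p = 0.0976 and 0.0767). The call of CYP94C1 was also lost with nuclear total scaling and without mock replicate 1 or 2, DC3000 replicate 1 or 2, or any 1 library of both treatments. That of IAR3 was also lost without mock replicate 3, valinomycin replicate 2, DC3000 replicate 1 or 2, or replicate 3 of both treatments. Without DC3000 replicate 3, CYP94B1 was called at -0.97 (limma adjusted p = 0.0268).

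Within the JOX family, the share of JOX3 was lower with valinomycin than in any other group, although 3 against 3 libraries cannot reach an exact p under 0.1. JOX3 made up 13.6, 14.1 and 16.2% of the summed FPKM of JOX2, JOX3 and JOX4 in the valinomycin libraries and 31.2, 32.8 and 33.2% in the DC3000 libraries. The mean shares were 14.6% ± 1.36 and 32.4% ± 1.07 (exact permutation test, two-sided p = 0.1, the smallest that 3 against 3 libraries allow). JOX2 made up 48.2% ± 2.74 with valinomycin, 33.5% ± 1.74 with DC3000 and 29.7% ± 0.591 with both. JOX4 went from 16.1% ± 6.96 in mock to 37.1% ± 4.05 with valinomycin. Mock shares were spread widely, with JOX3 at 59.8, 41.2 and 33.5%, at levels of a few FPKM. The summed JOX level itself was 5.18 ± 0.512 FPKM in mock, 76.4 ± 34.8 with valinomycin, 702 ± 70.5 under DC3000 and 875 ± 93.8 under both.

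Among the CYP94 genes, CYP94C1 made up 45.5, 31.7 and 28.9% of the summed FPKM in the valinomycin libraries, against 9.30, 11.5 and 8.70% with DC3000 and 14.6, 12.6 and 16.3% with both treatments. These treated groups did not overlap (exact permutation test, two-sided p = 0.1 for valinomycin against DC3000 and for both against DC3000). The mock shares of CYP94C1, 17.0, 12.8 and 25.4%, overlapped those with both treatments. CYP94B1 had the largest mean share in mock, at 52.0% ± 9.31, and CYP94B3 with DC3000, at 62.6% ± 6.46. In mock replicate 2 CYP94B3 made up 43.7% and CYP94B1 43.4%, and the mock shares rest on sums of only 1.70 to 2.83 FPKM. Of the amidohydrolase pair, IAR3 made up 70.6% ± 3.75 in mock and 69.4% ± 2.12 with valinomycin, but 83.0% ± 3.26 with DC3000 and 84.9% ± 1.46 with both.

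**Figure D4:**
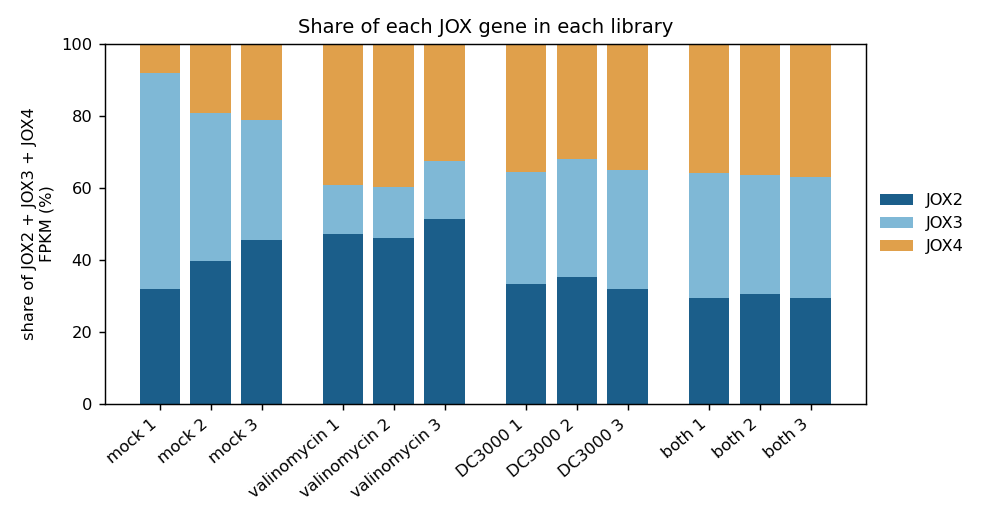
Share of JOX2, JOX3 and JOX4 in their summed FPKM in each of the 12 libraries, as stacked bars that add to 100%. The JOX3 share lies between 13.6 and 16.2% in the valinomycin libraries and between 31.2 and 34.9% in the 6 libraries given DC3000.

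Relatives of these enzymes and the other genes that modify jasmonate were compared as a list of 11, of which 8 have a row and 7 were tested. Against mock 4 of 7 rose with valinomycin, 3 with DC3000 and 3 with both treatments, and 0 fell by limma, beside 38.5%, 31.6% and 37.2% of all tested genes called higher, shares to which these counts are close. The counts at an unadjusted p under 0.05 were also 4, 3 and 3. The count with valinomycin, which held JAR1, ILR1, ILL2 and CYP94D2, was 2 without mock replicate 3 or valinomycin replicate 2. After median-of-ratios scaling 1 gene fell with DC3000 and 1 with both. JAR1, which joins jasmonic acid to isoleucine, stood at 10.7, 7.80 and 6.23 FPKM in mock, 23.7, 23.5 and 15.5 with valinomycin, 28.6, 29.8 and 25.9 under DC3000 and 27.3, 26.4 and 18.1 under both treatments. It rose by 1.25 ± 0.21, 1.68 ± 0.21 and 1.44 ± 0.21 (limma adjusted p = 0.000219, 1.41e-05 and 3.97e-05). JMT, which methylates jasmonic acid, stood at 0.835, 0.933 and 0.729 FPKM in mock and 1.10, 0.647 and 0.405 with valinomycin, and at 33.0, 20.8 and 12.5 with DC3000 and 17.6, 16.1 and 19.6 with both. Its mock and valinomycin libraries overlapped, and it rose by 3.56 ± 0.26 with DC3000 and 3.36 ± 0.26 with both (limma adjusted p = 5.59e-08 and 7.82e-08).

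ILR1, an amidohydrolase gene related to IAR3 and ILL6, rose from 2.23 ± 0.445 FPKM to 6.18 ± 1.91 with valinomycin, 20.4 ± 4.65 with DC3000 and 22.6 ± 5.74 with both (log2 change 1.13 ± 0.23, 2.71 ± 0.23 and 2.85 ± 0.23; limma adjusted p = 0.00108, 3.1e-07 and 1.43e-07). The related genes ILL1 and ILL2 stood at 5.74 ± 0.579 and 3.42 ± 0.812 FPKM in mock and at 6.02 ± 0.459 and 4.69 ± 1.16 with DC3000, where neither was called (limma adjusted p = 0.764 and 0.138). Transcripts of ILL1 and ILL2 are 90.6% identical over 52.3% of the ILL1 length, and ILL2 overlaps an opposite-strand gene with values, so their values are less certain. ILL3, at 0.705 ± 0.256 FPKM in mock and 0.764 ± 0.190 with DC3000, was too low to be tested. ST2B, whose transcript is 85.1% identical to that of ST2A over 87.9% of its own length, stood at 5.13, 3.99 and 2.87 FPKM in mock and 2.29, 4.10 and 2.46 with DC3000 and was not called (limma adjusted p = 0.19). CYP94D2, a cytochrome P450 of the same family, stood at 5.63 ± 0.609 FPKM in mock and 6.21 ± 0.542 with DC3000 (limma adjusted p = 0.549).

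**Figure D5:**
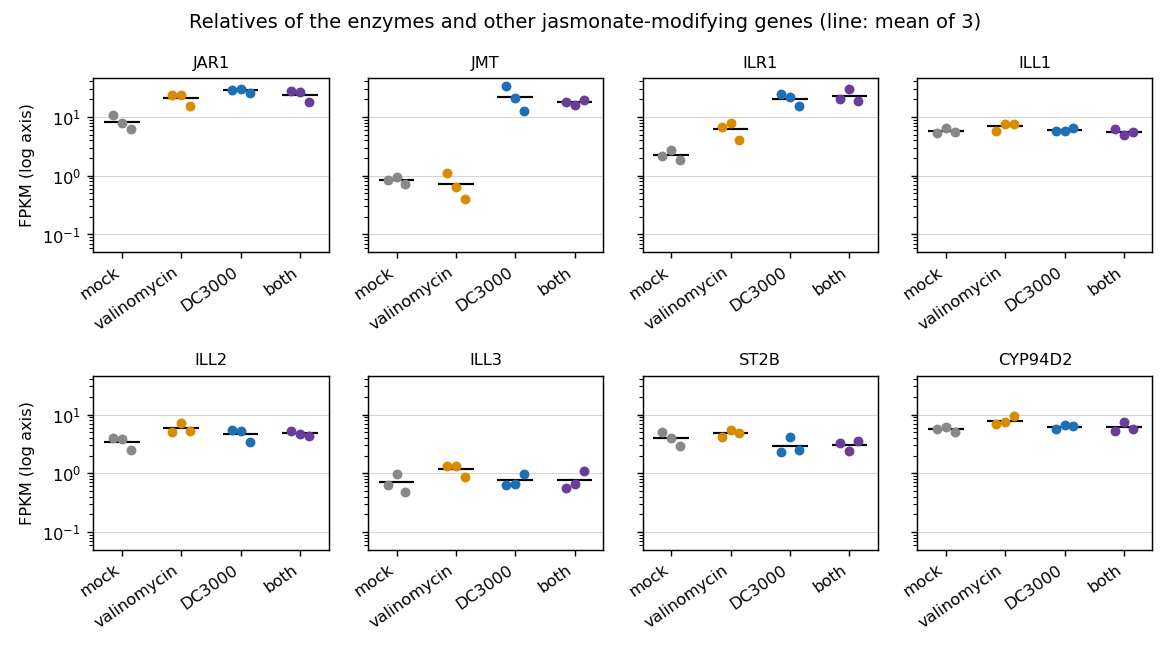
FPKM of 8 relatives and other jasmonate-modifying genes on a log axis, 1 point a library with a line at the mean of 3. JMT, ILR1 and JAR1 lie higher in every DC3000 library than in any mock library, while ILL1, ST2B and CYP94D2 overlap between these groups.

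The wider pathway moved in the same comparisons. Against mock, 13 of 14 tested synthesis genes rose with valinomycin, 14 with DC3000 and 14 with both, and 0 fell. Over all tested genes 38.5%, 31.6% and 37.2% were called higher and 13.8%, 17.2% and 23.1% lower. Of 15 tested genes of perception and repression 13 rose and 1 fell with valinomycin, and 14 rose and 1 fell both with DC3000 and with both treatments. The gene that fell was MYC4, a factor related to MYC2, with -1.01, -0.57 and -0.82 (limma adjusted p = 0.00101, 0.0334 and 0.00321), named after its values were seen. Its fall with DC3000 was not called without mock replicate 1 or 2 or without DC3000 replicate 1 or 3. Their medians were 1.87, 3.22 and 3.43 for synthesis and 1.06, 4.03 and 3.46 for perception and repression, beside 2.15, 6.11 and 6.44 for the 9 inactivation genes. The receptor gene COI1 stood at 11.1 ± 2.27 FPKM in mock and 15.1 ± 2.58 with DC3000. LOX2, a lipoxygenase of synthesis, went from 20.4 ± 3.64 FPKM in mock to 1686 ± 512 with DC3000, and OPR3, the reductase of synthesis, from 7.79 ± 0.985 to values of 260.0, 256 and 171. MYC2, the main transcription factor of the pathway, went from 7.69 ± 0.801 to 148 ± 40.1 FPKM, but its annotated exons overlap the opposite-strand gene AT1G32630 over 3241 bases, so reads of the pair could not be told apart if strand was not used.

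By the rule of the highest Pearson r over the 12 libraries, among 9015 tested genes at or above the median level, AT2G39980 was the gene most like ST2A, JOX2, JOX4 and ILL6 (r = 0.994, 0.996, 0.996 and 0.995). It stood at 1.68, 2.28 and 1.77 FPKM in mock, 8.52, 7.83 and 5.23 with valinomycin, 19.9, 19.5 and 14.9 under DC3000 and 18.8, 19.7 and 17.2 under both treatments. For CYP94B3 the most alike was FAMT (AT3G44860), named as a farnesoic acid methyltransferase gene, with r = 0.994, and for JOX3 PGIP2 (AT5G06870), a polygalacturonase inhibitor gene, with r = 0.994. IAR3 was most like AT3G53960, CYP94C1 most like AT2G32150 and CYP94B1 most like AT5G19110 (r = 0.995, 0.992 and 0.989). These r values describe likeness over libraries that fall into 4 separate groups, and no p is given.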

How the data were processed

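RNA of seedlings was sequenced in 12 libraries, prepared with the CORALL total RNA kit from RNA purified on RNeasy columns, per the labels' protocols. The authors deposited 1 table of normalized values for 20233 genes, with no unit in the header. The deposited values were taken as FPKM because they are not whole numbers and their totals differ between libraries and exceed those of TPM or CPM. The submitters' processing notes name TAIR10 as the genome build. Which aligner and counter were used, and whether strand was used, is not given in the sources used here. Low values lay within 0.1 of a whole-read step in 26.9 to 30.3% of cases, against 20% for an even spread, so read counts were not recovered, depth is unknown and no counting intervals are given.

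The values were tested as log2(FPKM + 1) with limma 3.58.1 in R 4.3.3 (empirical Bayes with trend, 4 group means, 8 residual degrees of freedom) over the 18048 genes that averaged 1 FPKM or more. Benjamini-Hochberg adjustment ran over all of these in each of 7 comparisons, and calls were made under 0.05. In simulated data of the same size 61 to 77% of genes changed by 1 on the log2 scale were called, and 94 to 99% of those changed by 2, over the 6 pairwise comparisons. Only a small part of the genes was changed there, with independent noise, while many genes changed in these data. The rates may therefore not hold for these data. Shares of a family were compared with exact permutation tests. Gene positions and upstream sequence came from RefSeq's TAIR10.1, in which transcripts were compared with blastn 2.17.0.

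The enzymes and gene lists were chosen with earlier results of these data known. Named by rule were all enzymes and relatives, AOS, OPR3, LOX2, COI1, MYC2 and JAZ10, the 2 called genes of each pathway list with the largest change between both treatments and DC3000, and for each enzyme the tested gene with the highest Pearson r. Alternatives were a pseudocount of 0.1, no filter, scaling by median-of-ratios size factors or by the nuclear total, a replicate block, leaving out each library, and a model of only the groups compared.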

Additional observations from a re-analysis of the deposited data

Results flagged for a closer look

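The valinomycin effect differed with and without DC3000 by the interaction term in 8 of the 9 enzymes, which is why they are listed here. On the log2(FPKM + 1) scale, the effect with DC3000 minus the effect without it was -3.52 for JOX4, -3.41 for JOX2 and -3.08 for ST2A. For CYP94B3 it was -2.03, for ILL6 -1.58 and for IAR3 -1.46. For JOX3 and CYP94C1 it was -1.41 and -1.35. In FPKM the direction was the other way for most of these genes, as given above. The clock difference between mock and the treated groups also enters the interaction. No cause of these differences was tested.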

How the results depend on the processing

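Of 1125 recomputed values for the 9 enzymes, 1099 kept their direction and side of the threshold, 18 lost a call, 7 gained one and 1 reversed. Against mock, 9 of 9 enzymes were called in every setting with DC3000 and with both treatments, and 8 to 9 with valinomycin. Between both treatments and DC3000, the enzymes called numbered 1 under nuclear total scaling (CYP94C1, 0.86, limma adjusted p = 0.0468), 3 in a model of only the groups compared, and 0 to 1 when 1 library was left out. Over all tested genes nuclear total scaling called 3473 higher and 2371 lower there, and the model of only the groups compared 3010 and 3000. CYP94B1 reversed there to -0.21 without DC3000 replicate 3, in a range of -0.21 to 0.22 over libraries left out. Leaving out 1 library gave 2914 to 5724 genes called in that comparison, with 3276, 3323 and 2914 without DC3000 replicate 1, DC3000 replicate 2 and replicate 2 of both treatments. In both treatments against valinomycin it gave 1596 to 3164. The interaction was called in 6 to 9 enzymes with 1 library left out. A pseudocount of 0.1 moved CYP94B1 and CYP94C1 to 1.14 and 3.45 in valinomycin against mock, and CYP94B3 and CYP94C1 to -3.05 and -2.62 in the interaction. The cause of these changes was not tested, except that a smaller pseudocount compresses low values less.

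Over all tested genes, 3 of 18 correlations of same-numbered deviations exceeded 0.1 (-0.24 to 0.44). The highest was between replicate 3 of valinomycin and of both treatments. Of 36 checks, 9 were best with their own number. These checks showed no general pairing by replicate number. They do not settle it for the 9 enzymes, most of which were lowest in replicate 3 of each treated group. With a replicate block the enzymes called numbered 9, 9, 9, 0, 9, 9 and 8 in the 7 comparisons. Alternatives for the relatives, pathway lists and other named genes were chosen after seeing the data. Depth is unknown, so counting error at levels under 1 FPKM, where 4 enzymes stood in mock, could not be given.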
